A study of Mus musculus with 3 samples.

Results

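Among mouse cells converted from embryonic fibroblasts toward motor neurons without neurotrophic supplements, 579 neurons were selected by 3 transcripts, Ecel1, Fxyd7 and Snhg11. A cell was counted as one of these Ecel1 Fxyd7 Snhg11 neurons when the unique molecular identifiers (UMIs, one per captured transcript) of the 3 genes summed to at least 5. The 579 cells were 15.6% (exact binomial 95% interval 14.4 to 16.8) of the 3716 cells kept from their library. All 3 libraries together held 10522 kept cells, out of 10962 barcodes. A barcode was kept if it had 500 or more genes and if mitochondrially encoded genes took no more than 20% of its UMIs. The comparison cells, called reference cells below, were the 2492 cells of the same library with a sum of 0 or 1. The 645 cells with a sum of 2 to 4 were in neither set.

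All cells carried the Hb9::GFP genotype, a reporter of the motor neuron gene Mnx1 (Hb9) that makes green fluorescent protein. All had received LNI, a cassette of mouse Lhx3, Ngn2 (Neurog2) with x3HA and Isl1, and DDRR, which joins HRAS(G12V) to p53DD. The library without supplements and a library with them were made at 14 dpi from cells sorted as Hb9::GFP-positive and alive. The supplements were BDNF, CNTF, GDNF, FGF and RepSox. The third library, with supplements, was made at 4 dpi from live cells sorted for low CellTrace-FarRed dye. Each condition was 1 library, so no difference between conditions has a replicate check and no test was run. The labels do not give how many animals or cultures stood behind a library.

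Ecel1 encodes a membrane metalloprotease of neurons that is needed for motor axons to branch in muscle and that is induced by nerve injury. Fxyd7 encodes a small neuronal regulator of the sodium pump. Snhg11 is a long noncoding RNA, abundant in neurons, whose transcript hosts small nucleolar RNAs. Syn2, given as a further marker but not used in the selection, encodes synapsin II, a coat protein of synaptic vesicles. A converting fibroblast that becomes a neuron is known to leave the cell cycle, lose matrix genes and gain neurofilaments, ion channels and the machinery of transmitter release.

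The start regions of the genes that define or mark these neurons are shown because E-boxes (CANNTG) are the sequence class bound by proneural factors such as Neurog2 of the cassette. RefSeq promoter windows of GRCm38.p6 were matched by symbol for 3 of the 4 genes, Ecel1, Snhg11 and Syn2. The 250 bases before the start site are printed 5′ to 3′ on the gene's strand, with E-boxes in capitals. The Ecel1 window is chr1:87156357-87156606 on the minus strand, the Snhg11 window chr2:158375463-158375712 on the plus strand, and the Syn2 window chr6:115134652-115134901 on the plus strand.
Ecel1: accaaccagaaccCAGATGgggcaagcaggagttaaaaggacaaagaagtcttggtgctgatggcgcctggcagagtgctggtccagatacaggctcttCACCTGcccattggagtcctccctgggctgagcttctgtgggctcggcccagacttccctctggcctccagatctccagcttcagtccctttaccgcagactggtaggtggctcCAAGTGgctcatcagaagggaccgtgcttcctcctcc
Snhg11: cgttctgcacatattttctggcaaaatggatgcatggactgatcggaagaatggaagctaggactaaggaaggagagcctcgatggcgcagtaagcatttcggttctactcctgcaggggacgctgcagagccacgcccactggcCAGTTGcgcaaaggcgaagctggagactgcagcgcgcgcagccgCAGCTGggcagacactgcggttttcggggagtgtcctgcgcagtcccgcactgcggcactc
Syn2: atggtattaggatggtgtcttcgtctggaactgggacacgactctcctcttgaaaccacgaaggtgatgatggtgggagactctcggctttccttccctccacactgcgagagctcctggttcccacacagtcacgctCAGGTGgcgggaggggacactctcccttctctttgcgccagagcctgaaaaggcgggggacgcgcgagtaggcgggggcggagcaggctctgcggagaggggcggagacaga
The search covered both strands and found 3 E-boxes before Ecel1, 2 before Snhg11 and 1 before this start of Syn2. The Ecel1 window held 1 CAGATG, and the Snhg11 window 1 CAGCTG, both of which are also E-boxes. E-boxes are common. Of 32851 promoter windows, 66.2% held CANNTG and 14.4% held CAGATG. Of the windows of genes compared, 11.5% held CAGCTG. Among windows of genes at least 2-fold higher in these neurons than in reference cells, 60.8% of 1563 held CANNTG, against 55.7% of 10008 windows of all genes compared. The homeodomain sequence TAATTA stood in none of the 3 windows shown and in 4.84% of all windows.

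The selected cells were set mainly by Ecel1. Of the 579 neurons, 561 (96.9%) held an Ecel1 UMI, 399 (68.9%) a Snhg11 UMI and 222 (38.3%) a Fxyd7 UMI, and 166 (28.7%) held all 3. A further 133 (23.0%) passed on Ecel1 alone. The sum had a median of 8 UMIs (quartiles 6 and 13) and reached 112. These neurons held 90.8% of the library's Fxyd7 UMIs, 82.4% of its Snhg11 UMIs, 65.9% of its Ecel1 UMIs and 49.5% of its Syn2 UMIs. As counts per 1000000 UMIs (CPM) summed over cells, Ecel1 stood at 355 in these neurons and 12.9 in reference cells, Snhg11 at 229 and 4.61, and Fxyd7 at 130 and 1.48. These 3 pairs of levels follow from the selection and are given only to describe it. Syn2 stood at 331 CPM (95% Poisson interval 319 to 343) and 62.5 CPM. Just outside the threshold, 168 cells had a sum of 4 and a median pan-neuronal share of 1.21% of UMIs. Just inside it, 119 cells had a sum of 5 and a share of 1.22%.

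In the library with supplements, 154 of 2314 kept cells (6.66%, 5.67 to 7.75) passed the same rule, and at 4 dpi 0 of 4492 did, where 3 cells would be 0.0668% and the exact upper bound is 0.0821%. Across all kept cells, Ecel1 was at 112 CPM without supplements, 33.2 CPM with them and 0.983 CPM at 4 dpi. Fxyd7 was at 29.8, 2.15 and 0.0819 CPM in the same order, and Snhg11 at 57.6, 38.5 and 0.901 CPM. Fxyd7 thus differed most between the 14 dpi libraries and Snhg11 least. The rule depends on depth: medians were 10664 UMIs per kept cell without supplements, 14380.5 with them and 2312.5 at 4 dpi. With every cell thinned to 8000 UMIs and shallower cells left out, 276 of 2634 cells (10.5%) passed without supplements, 55 of 1882 (2.92%) with them and 0 of 52 (exact upper bound 6.85%) at 4 dpi. The deeper library therefore had the smaller share with and without thinning. The bar plot of the summed UMIs shows the whole distribution.

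**Figure D1:**
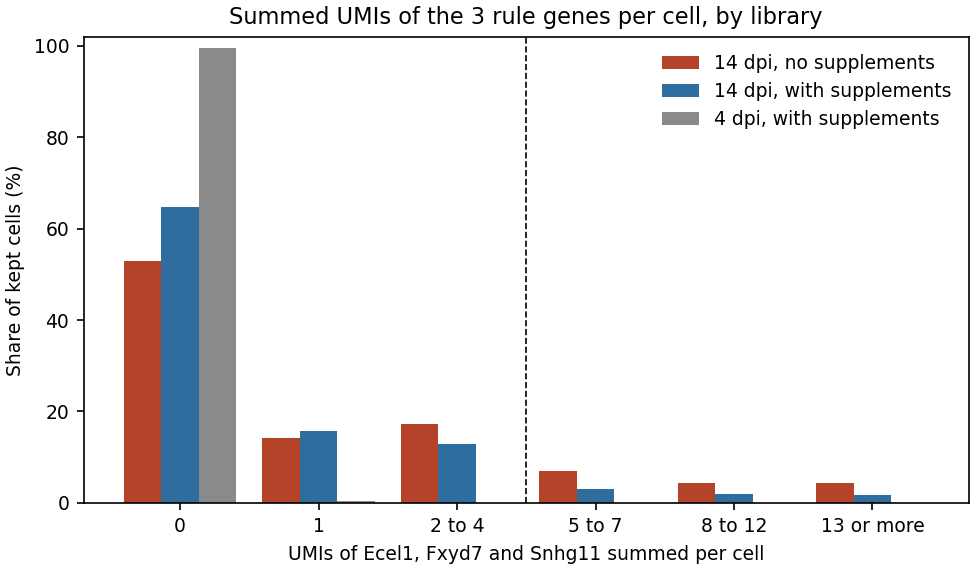
Share of kept cells (y axis, percent) by the summed UMIs of Ecel1, Fxyd7 and Snhg11 per cell (x axis) in each of the 3 libraries. Bars right of the dashed line pass the rule: 15.6% of cells without supplements, 6.66% with supplements and 0 at 4 dpi.

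Depth and cell quality differed between the selected and the reference cells. Medians were 14499 UMIs and 4368 genes in the Ecel1 Fxyd7 Snhg11 neurons and 9815.5 UMIs and 3114 genes in reference cells. Ribosomal protein genes took a median of 12.4% of UMIs against 22.5%, and mitochondrially encoded genes 6.07% against 4.05%. Xist together with Y-linked UMIs, which 1 mouse cell should not hold, occurred in 71 of these neurons (12.3%) and in 4.05% of reference cells. The doublet caller marked only 1 cell in this library, which is too few for it to have worked, so doublets were kept. Xist without Y-linked UMIs was found in 39.7% of these neurons and 50.7% of reference cells, and Y-linked UMIs without Xist in 40.2% and 33.7%. The part of doublets, of depth and of sex makeup in the differences below was not tested. Without the cells that held both sex markers, which leaves doublets of 1 sex in place, 1440 genes were at least 2-fold higher and 742 lower, against 1408 and 720 with them. Among cells with Xist but no Y-linked UMIs, 1303 genes were at least 2-fold higher and 658 lower. Among cells with Y-linked UMIs but no Xist, these counts were 1705 and 917. No barcode of these neurons occurred in another library.

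Neuron markers were high in the selected cells. All 12 neuron markers were measured at 10 CPM or more, and 10 of them were at least 2-fold higher in the selected cells than in reference cells, with a median log2 ratio of 1.96, where 14.6% of all genes compared were that much higher. Their summed level was 8751 CPM against 3116 CPM. Tubb3, the neuronal beta-tubulin, stood at 931 and 258 CPM, Mapt, the axonal protein tau, at 284 and 31.7 CPM, and Rbfox3, which encodes NeuN, at 50.5 and 12.4 CPM. Markers of other classes were unevenly present. Endothelial markers summed to 3.05 CPM, against 1.94 CPM in reference cells, with Cldn5 and Tek at 0 UMIs, and macrophage markers to 3.47 and 12.3 CPM, with C1qa, C1qb and Ptprc at 0. Keratinocyte markers summed to 105 and 136 CPM, from Krt10 at 55.8 CPM and Krtdap at 44.6 CPM, with Krt5 and Krt14 at 0 UMIs. Oligodendrocyte markers summed to 87.4 and 89.7 CPM, nearly all of it Pdgfra at 78.8 CPM, which fibroblasts also express, with Olig1, Olig2 and Mog at 0 UMIs. Smooth muscle markers summed to 63.7 and 168 CPM and astrocyte markers to 29.6 and 58.2 CPM, of which Slc1a2 was higher in these neurons, at 13.8 and 5.33 CPM. Foxd3, a neural crest gene, was at 0 UMIs. The part of other cell types in the differences below was not tested. The 12 fibroblast markers summed to 1217 CPM, against 4380 CPM in reference cells, and 7 of them were at least 2-fold lower. Sox2, a progenitor gene, stood at 2.31 CPM against 10.9 CPM.

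Compared with reference cells, the Ecel1 Fxyd7 Snhg11 neurons had higher levels of genes for axons, vesicle release, excitability and hormone processing, and lower levels of genes for cell division and matrix. Of 9620 genes at 10 CPM or more on either side, 1408 (14.6%) were higher by 2-fold or more and 720 (7.48%) were lower by as much. The median log2 ratio over all 9620 genes was 0.19. The 1408 genes made up 66.2% of those past 2-fold. Scaling by the median of gene ratios instead of by total UMIs shifted every ratio by -0.25 on the log2 scale, took the median to -0.07 and moved that share to 49.0%. Because cells were selected by transcripts of the same libraries, these ratios describe the selected cells and test nothing. Their 95% intervals are exact binomial and cover counting error only.

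**Figure D2:**
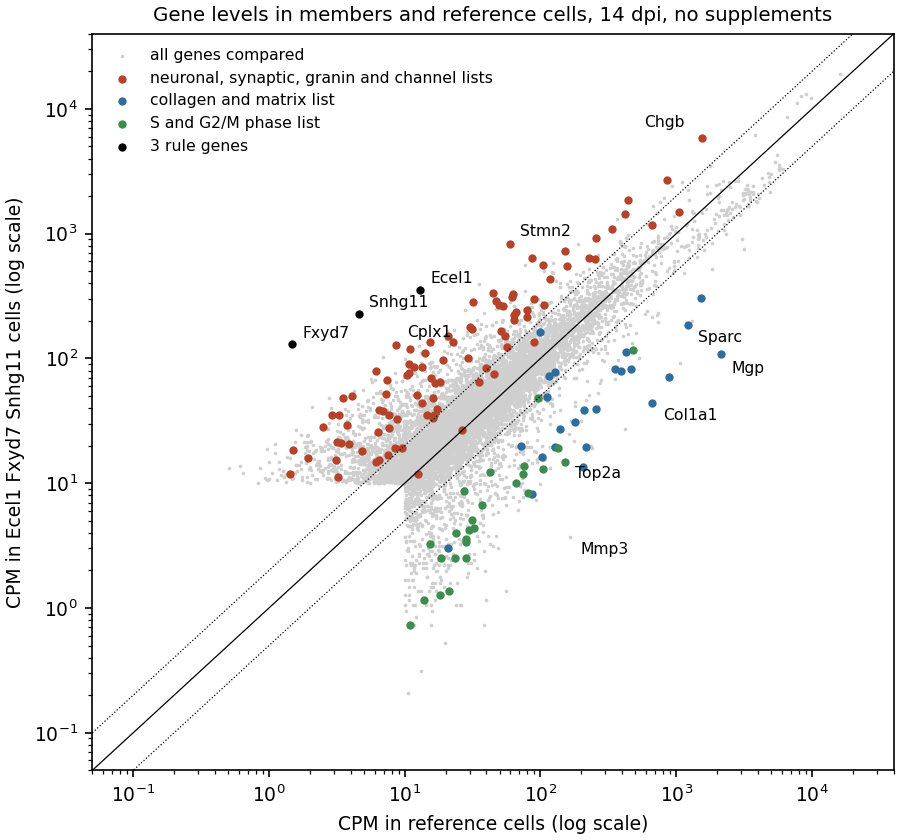
CPM in the 579 Ecel1 Fxyd7 Snhg11 neurons (y axis, log scale) against CPM in 2492 reference cells (x axis, log scale), 1 point per gene. The solid line marks equality and the dotted lines 2-fold, and most genes of the neuronal lists lie above the lines while most of the matrix list and the S and G2/M phase list lie below them.

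Genes of neuronal structure were higher nearly throughout. Of 20 pan-neuronal genes 18 were at least 2-fold higher and 0 lower, with a median log2 ratio of 2.04. Stmn2, a microtubule regulator of growing axons, was at 820 CPM (802 to 839) against 59.7 CPM in reference cells, a log2 ratio of 3.78 (3.70 to 3.86). In the library with supplements Stmn2 was at 1677 CPM in cells that passed the rule and 649 CPM in that library's reference cells. After thinning to 8000 UMIs, which left 505 of the 579 neurons and 1619 reference cells, 66.7% of the neurons and 9.82% of reference cells held a Stmn2 UMI (72.0% and 12.2% before thinning). In collagen-rich reference cells, which had a median of 9301.5 UMIs, the thinned share was 4.80%. The neurofilament genes differed from one another. Nefh, the heavy subunit that accumulates as axons mature, had a log2 ratio of 3.82 (3.47 to 4.19) at 40.1 CPM, while Nefl, the light subunit, had 0.49 at 1480 CPM and Nefm, the medium subunit, 0.82 at 1164 CPM.

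Vesicle release genes followed. Of 33 measured genes of synaptic vesicles and release 31 were at least 2-fold higher, 0 lower, and the median log2 ratio was 1.86. Cplx1, which encodes complexin 1, a clamp and activator of vesicle fusion, stood at 128 CPM (121 to 135) against 8.67 CPM, a log2 ratio of 3.88 (3.68 to 4.08). Its thinned share of cells was 53.7%, against 5.13% of reference cells and 1.80% of collagen-rich cells. With supplements the rule-passing cells held 142 CPM, so the level of Cplx1 was close in the 2 libraries at 14 dpi. Nsg2, a neuronal endosomal protein, was at 48.2 and 3.53 CPM, and Syt11, of the synaptotagmin family, at 558 and 104 CPM. Sv2b, a vesicle glycoprotein, was the exception at 11.8 and 12.5 CPM.

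The sodium pump genes, which encode the partners of Fxyd7, were uneven. Apart from Fxyd7, 8 of them were measured, of which 4 were at least 2-fold higher and 1 lower, with a median log2 ratio of 0.91. Atp1b1, a beta subunit, stood at 557 and 77.4 CPM. Fxyd1, another regulator of the pump, was at 7.57 and 17.9 CPM, and in cells that passed the rule with supplements at 1.95 CPM, against 5.22 CPM in their reference cells. These last 2 values lie below the 10 CPM minimum for comparison.

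Ion channel genes were higher as groups. All 7 measured sodium channel genes, 17 of 20 potassium channel genes and 7 of 10 calcium channel genes were at least 2-fold higher, and none was 2-fold lower. Their median log2 ratios were 2.57, 2.11 and 1.43. Nalcn, the sodium leak channel that sets resting excitability, was at 18.5 and 1.51 CPM, and Fam155a, an auxiliary protein of that channel, at 26.7 and 1.58 CPM. Scn3a, a channel of developing neurons, was at 152 and 20.8 CPM. Dpp6, an auxiliary subunit of A-type potassium channels, was at 20.7 and 1.12 CPM. Cacna2d2, an auxiliary calcium channel subunit, was at 19.0 and 1.48 CPM. Cacna1g, a T-type calcium channel, was at 13.7 CPM against 15.4 CPM.

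Among transmitter receptors, 5 of 7 ionotropic glutamate receptor genes and 4 of 5 GABA and glycine receptor genes were at least 2-fold higher, with medians of 1.39 and 2.94. Gria2, the AMPA receptor subunit that limits calcium entry, stood at 232 and 38.4 CPM, and Grin2b, an NMDA receptor subunit, at 47.1 and 6.73 CPM.

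Genes of dense-core vesicles were high in level. Of 13 granin and prohormone processing genes 12 were at least 2-fold higher and 0 lower, with a median log2 ratio of 2.58. Chgb, which encodes the granule protein chromogranin B, reached 5881 CPM against 1559 CPM, and was at 2105 CPM in rule-passing cells with supplements. A Chgb UMI was found in 98.6% of thinned neurons, but also in 28.2% of thinned collagen-rich cells. Whether the UMIs in the latter came from those cells themselves was not tested. Pcsk2, a prohormone convertase, was at 35.0 and 3.28 CPM, and its chaperone Scg5 at 119 and 11.0 CPM. The peptides themselves were mixed, with 6 of 14 neuropeptide genes at least 2-fold higher and 4 lower. Cartpt was at 53.8 and 8.60 CPM and Gal, which encodes galanin, at 1475 and 722 CPM. Tac1, the precursor of substance P, was at 1.58 and 24.1 CPM, and at 81.1 CPM in collagen-rich reference cells.

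The motor neuron genes were partly higher. Of 17 measured, apart from Ecel1, 9 were at least 2-fold higher and 1 lower, with a median log2 ratio of 1.30. Mnx1 was at 38.3 CPM (34.4 to 42.4) against 13.3 CPM, a log2 ratio of 1.53 (1.31 to 1.74), and its reporter, v.EGFP, at 2091 and 1679 CPM, a log2 ratio of 0.32. Ache, which encodes the enzyme that breaks down acetylcholine, was at 85.2 and 11.8 CPM. Slc18a3, the vesicular acetylcholine transporter, was at 33.8 and 5.94 CPM, and Chat, the enzyme that makes acetylcholine, at 9.46 and 1.91 CPM. Slc18a3 lies within an intron of Chat, and no source used here says how reads were shared between them. Slc5a7, the choline transporter, went the other way, at 7.36 CPM against 41.2 CPM, a log2 ratio of -2.48 (-2.85 to -2.14). A UMI of Slc18a3 or Chat was found in 210 of the 579 neurons (36.3%) and in 6.46% of reference cells. Those 210 were 43.0% of the 488 such cells in the library. These shares were taken without thinning, and the neurons were the deeper cells. With cells thinned to 8000 UMIs and the rule applied again, the log2 ratio of Slc18a3 was 1.81, against 2.51 without thinning.

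The cassette's genes and the neuronal regulators showed smaller differences, with exceptions. Reads of Neurog2, Lhx3 and Isl1 can come from the cassette or from the cells' own genes, which this 3′ method does not separate. Neurog2 was at 159 CPM in these neurons and 83.3 CPM in reference cells, Lhx3 at 85.9 and 45.5 CPM, and Isl1 at 91.1 and 51.2 CPM, so all 3 had log2 ratios below 1. Hras was at 130 and 116 CPM, and Trp53 at 68.4 and 109 CPM. Whether reads of the HRAS(G12V) and p53DD of DDRR count toward Hras and Trp53 was not tested. Myt1l, a transcription factor that holds other lineages' genes down in neurons, was at 47.8 and 2.77 CPM, a log2 ratio of 4.11 (3.76 to 4.48). Notch1, a receptor that holds progenitors back from neuronal fate, was at 2.73 and 16.7 CPM, and Hes1, its target, at 4.73 and 25.5 CPM. Of 20 neuronal RNA-binding and splicing genes 15 were at least 2-fold higher and 0 lower. Among them Srrm4, which switches on neuronal microexons, was at 27.0 and 2.74 CPM.

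Among the genes with the highest ratios of all, at 20 CPM or more and apart from the 3 of the rule, were Eef1a2, Dpp6, Myt1l, Fam155a, Cplx1, Nefh, Mtus2, Stmn2, Igsf21, Nsg2, Apba2, L1cam, Slc24a2 and Dnajc6. Eef1a2, the translation elongation factor of neurons and muscle, led them at 40.7 and 2.09 CPM, a log2 ratio of 4.28 (3.88 to 4.71). L1cam, an axonal adhesion molecule, was at 78.6 and 6.16 CPM, Apba2, an adaptor of presynaptic terminals, at 54.6 and 4.21 CPM, and Dnajc6, the auxilin that uncoats clathrin vesicles, at 23.8 and 1.91 CPM.

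Cell division and matrix genes were low. All 26 measured S and G2/M phase genes were at least 2-fold lower, with a median log2 ratio of -2.84, and so were 21 of 24 collagen and matrix genes, with a median of -2.52. Aurkb, a mitotic kinase, was at 1.37 and 21.1 CPM, and Hmgb2, a chromatin protein of dividing cells, at 117 and 476 CPM. Mgp, which encodes matrix Gla protein, was at 108 CPM against 2130 CPM, and Col1a1, a chain of type I collagen, at 43.6 and 667 CPM. A collagen UMI was still found in 76.7% of these neurons, and a Col1a2 UMI in 63.4% of them after thinning, against 89.6% of thinned reference cells. The 15 lowest ratios were those of Cxcl10, Mmp3, Ccl5, Angptl7, Apod, Fmo2, Ogn, Mgp, Crym, Smim41, Colec12, Lama4, Osmr, Aurkb and H19. Cxcl10, an interferon-induced chemokine, was at 0.736 CPM against 38.7 CPM, Mmp3, a matrix protease, at 3.68 and 166 CPM, and H19, an imprinted RNA of growing tissue, at 27.3 and 421 CPM. Of 19 interferon-stimulated genes 9 were at least 2-fold lower and 0 higher. None of 83 ribosomal protein genes was 2-fold higher and 9 were lower, with a median of -0.71.

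The size of the lower set depended on who was in the reference. Of the reference cells, 534 (21.4%) were collagen-rich, with at least 0.5% of UMIs from Col1a1, Col1a2 and Col3a1, and 298 (12.0%) were cycling, with at least 0.3% from the S and G2/M phase genes. Of the neurons, 2 and 4 were. Against the 1724 reference cells that were neither, an alternative chosen after the data had been seen, 1060 genes were at least 2-fold higher and 376 lower. The medians of the matrix and division lists in that comparison were -1.62 and -0.36. Cells were left out by collagen genes and by the division list itself, so smaller differences in these lists follow from that choice.

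A closer comparison was made with 257 reference cells whose pan-neuronal share was at least 1.14% of UMIs, the lower quartile of the selected neurons. The 2 sets then differed far less. Of 9236 genes, 274 (2.97%) were at least 2-fold higher in the Ecel1 Fxyd7 Snhg11 neurons and 30 (0.325%) lower, with a median of 0.10 over all genes. With cells thinned to 8000 UMIs and the rule applied again, which left 276 neurons and so changed both depth and membership, these counts were 415 and 95. Pan-neuronal genes themselves were chosen to be matched and had a median of 0.27. Of synaptic vesicle genes 6 of 33 were at least 2-fold higher, of potassium channel genes 7 of 20, of sodium channel genes 3 of 7, and of GABA and glycine receptor genes 3 of 5, with 0 lower in each. Of 22 matrix genes 3 were at least 2-fold higher and 0 lower, with Col3a1, a fibrillar collagen, at 70.4 and 29.6 CPM. These levels are summed over cells. Per cell, Col1a1, Col1a2 and Col3a1 together took a lower median share of UMIs in the neurons, 0.0161% against 0.0269%. None of 9 measured division genes and 16 interferon-stimulated genes was 2-fold lower, where 0.325% of all genes were. These neurons were deeper than the neuronal reference cells, at medians of 14499 and 9818 UMIs.

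At the level of genes, Nefh was at 40.1 CPM against 11.0 CPM in these neuronal reference cells, Cartpt at 53.8 and 17.2 CPM, Pcsk2 at 35.0 and 10.6 CPM, and Eef1a2 at 40.7 and 11.7 CPM. Cntn1, an axonal adhesion molecule, was at 43.5 and 9.14 CPM, Spock3, a secreted proteoglycan, at 21.6 and 2.93 CPM, and Dgkk, a diacylglycerol kinase, at 21.1 and 2.56 CPM. On the lower side, Aldh1a3, which makes retinoic acid, was at 7.99 and 25.6 CPM, Crabp2, which binds it, at 20.1 and 58.2 CPM, and Lin28b, an RNA-binding protein of immature cells, at 5.46 and 21.6 CPM. Of 16 motor neuron genes 4 were at least 2-fold higher and 0 lower, and 12 had ratios above 0. Ache was at 85.2 and 42.1 CPM and Slc18a3 at 33.8 and 22.3 CPM. Without thinning, a UMI of Slc18a3 or Chat was found in 36.3% of the neurons and 19.1% of neuronal reference cells. Other values lay close together, with Mnx1 at 38.3 and 39.9 CPM and Lhx3 at 85.9 and 89.2 CPM. Nhlh2, a factor of newborn neurons, was at 490 and 495 CPM, and v.EGFP was lower in the selected neurons, at 2091 and 3199 CPM.

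The pattern was also graded over the sum. The median pan-neuronal share of UMIs was 0.364% at a sum of 0 or 1, 1.13% at 2 to 4, 1.34% at 5 to 7 (261 cells), 1.53% at 8 to 12 (158 cells) and 1.87% at 13 or more (160 cells). Stmn2 was at 59.7, 276 and 500 CPM in the first 3 bands and at 1293 CPM in the highest. Chgb did not follow, at 1559, 5068, 6362 and 4945 CPM. Neither did v.EGFP, which was highest, at 2467 CPM, in the band of 2 to 4. Median depth was 12274 UMIs in the band of 5 to 7 and 18542 in the highest, and after thinning a Stmn2 UMI was found in 49.3% and 88.8% of their cells. Of 9493 genes, 251 (2.64%) were at least 2-fold higher in the highest band than in the band of 5 to 7, and 67 (0.706%) lower. Sex markers shifted along the sum as well. Cells with Xist but no Y-linked UMIs were 50.7% at 0 or 1, then 57.4%, 45.2%, 39.2% and 31.3% over the bands above. Those with Y-linked UMIs but no Xist were 33.7%, 25.6%, 34.9%, 42.4% and 46.9%. The part of sex makeup in this gradient was not tested.

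**Figure D3:**
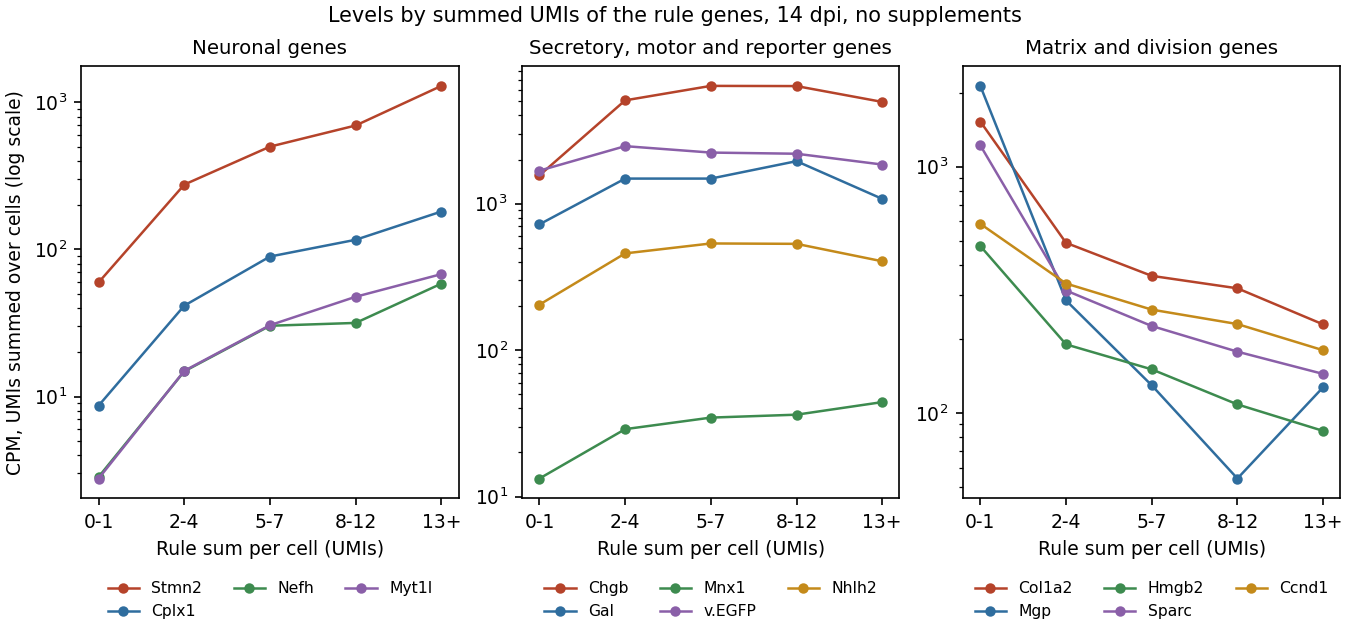
CPM of 14 genes (y axes, log scale) in cells of the library without supplements grouped by the summed UMIs of the rule genes (x axes), from UMIs summed over the cells of each group. Stmn2 climbs from 59.7 to 1293 CPM, Chgb and v.EGFP level off or decline above a sum of 7, and Col1a2 declines.

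The neurons were not uniform in which of the 3 genes they carried. The 175 that held both Fxyd7 and Snhg11 were compared with the 133 that passed on Ecel1 alone, at similar median depths of 15861 and 15271 UMIs. The 2 sets also differed in the sum of the rule genes, at medians of 13 and 6 UMIs. Their median pan-neuronal shares were 1.94% and 1.24%. The part of the sum in the differences between these sets was not tested. Of 9519 genes, 438 (4.6%) were at least 2-fold higher in the first set and 179 (1.88%) lower. GABA and glycine receptor genes were at least 2-fold higher in 5 of 7 cases, ionotropic glutamate receptor genes in 6 of 10, potassium channel genes in 10 of 24 and motor neuron genes in 6 of 18. Stmn2 was at 1456 CPM in the first set and 351 CPM in the second, Ache at 132 and 43.8 CPM, Dgkk at 39.4 and 3.54 CPM, and Cntn1 at 75.9 and 10.2 CPM. Secreted products had the opposite order for Chgb, at 4747 and 7027 CPM, Gal, at 1143 and 1986 CPM, and Cartpt, at 46.1 and 101 CPM. Of 14 S and G2/M phase genes 9 were at least 2-fold lower in the first set, with a median of -1.65. Aurkb was at 0.331 and 4.87 CPM only. These ratios come from UMIs summed over cells. Per cell, the median share of UMIs from that list was close, at 0.0171% in the first set and 0.0193% in the second. Mnx1 was at 52.4 and 27.0 CPM.

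The same rule in the library with supplements gave a like pattern in other cells. As the same 3 genes selected both sets, this likeness is a description and not an independent check. There, 737 of 9410 genes (7.83%) were at least 2-fold higher in rule-passing than in reference cells and 429 (4.56%) lower. Of 1266 genes at least 2-fold higher without supplements and measured in both, 566 (44.7%) were also at least 2-fold higher with supplements and 1245 had a ratio above 0. Of 559 lower genes 325 (58.1%) were also at least 2-fold lower, and 0 genes crossed from 2-fold in one direction to 2-fold in the other. Medians were smaller for pan-neuronal genes, at 1.09 with supplements against 2.04 without, and close for division genes, at -2.91 and -2.84. The reference cells differed too, since their median pan-neuronal share was 1.06% of UMIs with supplements and 0.364% without. With supplements the rule-passing cells were again deeper than reference cells, at medians of 20507 and 13347 UMIs. They also held Xist together with Y-linked UMIs more often, in 12.3% against 4.56%. The part of depth and doublets in the shared pattern was not tested.

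**Figure D4:**
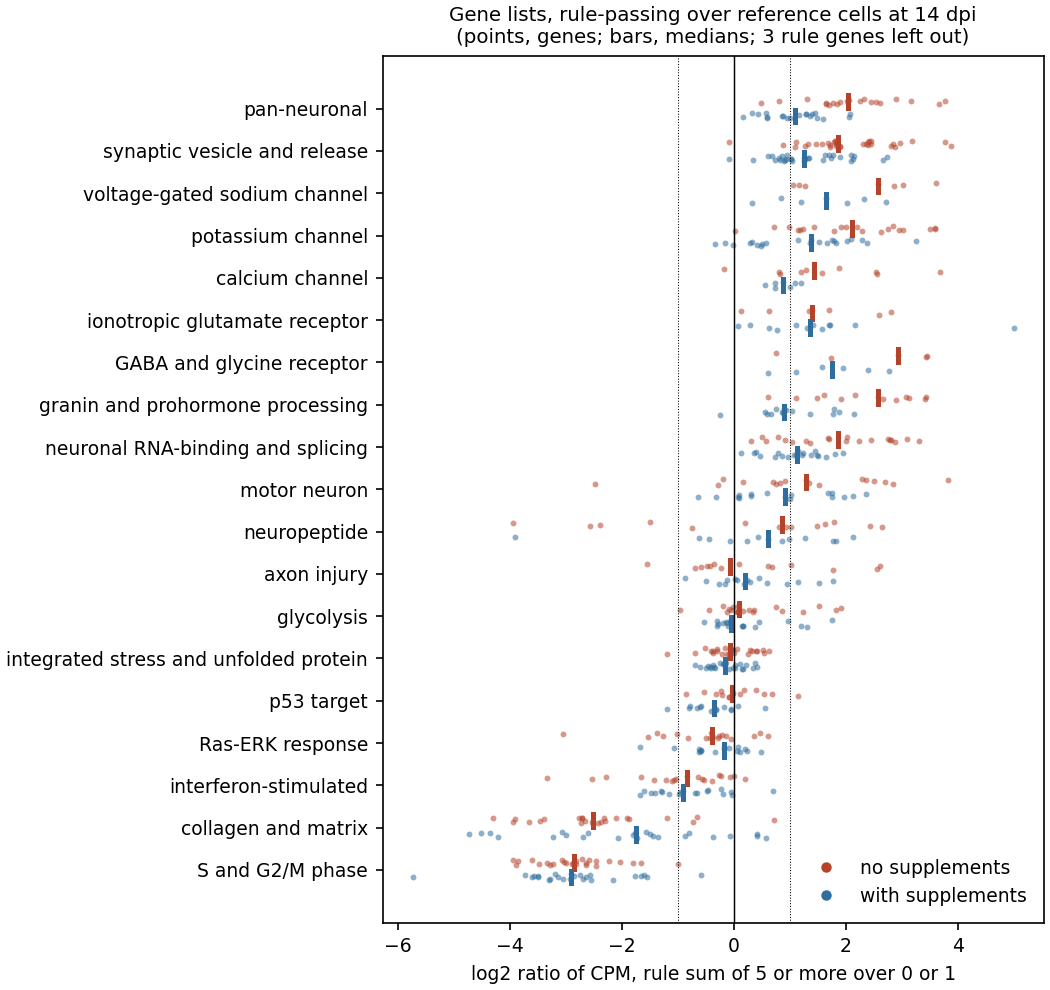
Log2 ratio of CPM (x axis) in rule-passing cells over reference cells for the genes of 19 lists (y axis), without supplements and with supplements at 14 dpi. Points are genes and bars are medians, and pan-neuronal, channel and granin lists lie to the right and matrix and division lists to the left in both libraries.

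Set side by side, the rule-passing cells of the 2 libraries at 14 dpi differed in metabolism and peptides more than in pan-neuronal genes. The rule picked unlike mixes in the 2 libraries. With supplements 81.8% held an Ecel1 UMI, 79.2% a Snhg11 UMI and 12.3% a Fxyd7 UMI, against 96.9%, 68.9% and 38.3% without. Median depth was 20507 UMIs with supplements and 14499 without. The part of this mix and of depth in the differences was not tested. Of 9544 genes, 512 (5.36%) were at least 2-fold higher in the 579 neurons without supplements than in the 154 cells with them, and 436 (4.57%) lower, with a median of 0.02. With cells thinned to 8000 UMIs and the rule applied again, which left 276 and 55 cells, the counts were 832 and 870. Pan-neuronal genes had a median of -0.01, with 1 of 20 higher and 2 lower. Of 33 synaptic vesicle genes 1 was higher and 2 lower. Other neuronal lists differed more. Of 13 ionotropic glutamate receptor genes 6 were at least 2-fold lower and 1 higher. Of 24 potassium channel genes 7 were lower and 3 higher, and of 7 sodium pump genes 1 was lower and 3 higher. Of 22 glycolysis genes 17 were at least 2-fold higher and 0 lower, with a median of 1.52, and of 19 further hypoxia-responsive genes 14 were higher and 0 lower. Slc16a3, which exports lactate, was at 50.9 and 5.28 CPM, Ldha, lactate dehydrogenase, at 1458 and 421 CPM, Bnip3, a mitophagy receptor induced by low oxygen, at 536 and 61.4 CPM, and Adm, which encodes adrenomedullin, at 45.3 and 3.34 CPM. The reference cells differed the same way. Ldha was at 1361 CPM in reference cells without supplements and 510 CPM in those with them, and the glycolysis genes summed to 10531 and 3941 CPM.

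Several neuronal genes were higher without supplements in rule-passing cells. Caly, a vesicle protein of neurons, was at 64.9 and 5.84 CPM, Nefh at 40.1 and 11.4 CPM, and Ache at 85.2 and 21.4 CPM. In the reference cells of the 2 libraries Caly was at 5.72 and 1.40 CPM and Ache at 11.8 and 6.33 CPM. Krtdap, which defines another set of cells in the library without supplements, was at 44.6 CPM against 0.278 CPM, from 1 UMI, a log2 ratio of 7.32 (4.84 to 12.63). It was at 93.9 CPM in the reference cells without supplements. Among the 284 cells with at least 5 UMIs of Krtdap and Ndufa4l2 were 24 of the 579 neurons (4.15%) and 7.87% of reference cells. The log2 ratio of Krtdap to reference cells was -1.08 in all 579 neurons and -5.68 in the 135 without collagen UMIs. The part of other cells in its level was not tested.

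Other genes were higher with supplements. Of 17 neuropeptide genes 9 were at least 2-fold lower and 6 higher in the neurons without supplements. Gal was at 1475 CPM against 8456 CPM, Cartpt at 53.8 and 493 CPM, and Vip, which encodes vasoactive intestinal peptide, at 0.210 CPM, from 2 UMIs, against 93.4 CPM, a log2 ratio of -8.80 (-11.85 to -6.93). Cck, the cholecystokinin gene, went the other way at 618 and 82.6 CPM. Of 16 axon injury genes 6 were lower and 1 higher. Sprr1a, induced in injured neurons, was at 2.94 and 156 CPM and Gap43, a growth cone protein, at 1437 and 2416 CPM. Gria4, an AMPA receptor subunit, was at 6.31 and 103 CPM. Gal and Vip were high throughout the library with supplements, at 7179 and 69.3 CPM in its reference cells, whereas Gria4 was at 31.8 CPM there. In that library, the highest log2 ratio of rule-passing over reference cells was 2.14 among neuropeptide genes and 1.77 among axon injury genes. Without supplements, Cck had a log2 ratio of only 0.20 over reference cells. Schwann cell markers summed to 18.5 CPM without and 126 CPM with supplements, of which Pmp22 was 11.1 and 121 CPM, and progenitor markers to 6.94 and 75.9 CPM, of which Sox2 was at 2.31 and 40.9 CPM. The reference cells with supplements were at similar levels, 121 CPM for the Schwann cell markers and 95.5 CPM for the progenitor markers. Their part in these differences was not tested.

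**Figure D5:**
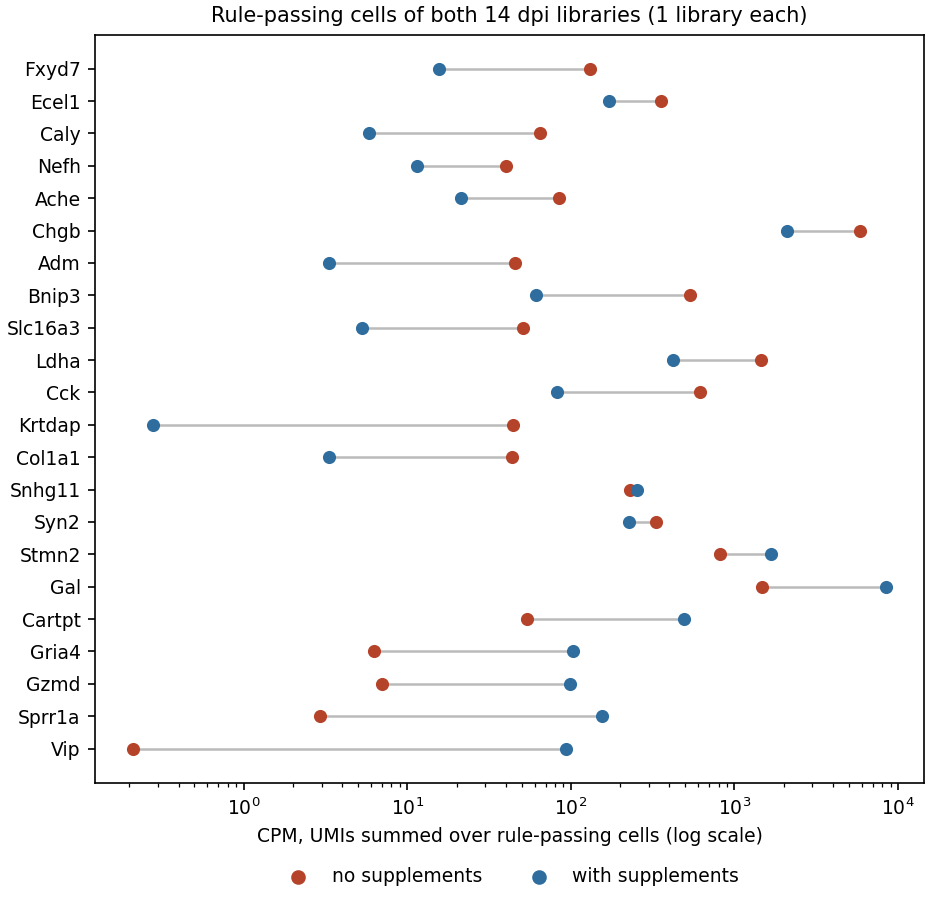
CPM (x axis, log scale) of 22 genes (y axis) in rule-passing cells of the library without supplements and of the library with supplements at 14 dpi, 1 library each. Caly, Adm and Krtdap are higher without supplements, Syn2 is at similar levels in both, and Gal, Cartpt, Sprr1a and Vip are higher with supplements. Ecel1, Fxyd7 and Snhg11 are the rule genes, so their levels here depend on the selection and are shown only to describe it.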

How the data were processed

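UMI counts per gene and cell were deposited by the authors as 10x matrices. Cell Ranger 6.1.1 made them, per the file headers, on GRCm39 according to the submitters' processing notes, from 3′ v3.1 libraries, per the labels' protocols. No source used here states the cell calling or the treatment of intron reads. The 31783 features were summed by symbol into 31744. Totals were 37112015 UMIs with supplements at 14 dpi, 46150432 without and 12290301 at 4 dpi, and libraries shared 3 to 5 barcodes in pairs.

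UMIs were summed over the cells of a set and divided by their total (CPM). Genes at 10 CPM or more on either side were compared, and 2-fold is the mark used. Intervals are exact (95%) and cover counting error only. With 1 library per group no test was run and no p-value exists. The counting of changed genes and the intervals were tested on simulated data. Thinning drew 8000 UMIs per cell. Shares of cells with a UMI keep the original sets and leave out 74 of the 579 neurons and 873 of 2492 reference cells, and thinned counts of genes apply the rule again. Doublets were scored with Scrublet in scanpy 1.11.5 (Python 3.11.15).

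The selected cells, the 30 gene lists and the 19 marker classes were chosen with earlier results of these data known. The 3 rule genes were left out of the lists. Named genes were the rule and marker genes; the 15 highest and 15 lowest ratios to reference cells and the 10 highest and lowest to each other set, at 20 CPM or more, without predicted, mitochondrial, ribosomal and sex-linked genes; the 2 highest and lowest ratios and 2 highest levels per list; and cassette and cholinergic genes. Mapt, Rbfox3 and Tubb3 are named as neuron markers. Outside the rule, Krt10, Pdgfra, Slc1a2, Pmp22, Col3a1, Cntfr, Ntrk2, Shox2 and Lhx4, and the markers given at 0 UMIs, were named after their values were seen. Tried alternatives were other thresholds, depth, doublet scores, scaling, cells with Xist or Y-linked UMIs only, and CPM minimums. Some genes that these rules pick are not reported here.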

Additional observations from a re-analysis of the deposited data

How the results depend on the processing

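No paired analysis was possible because each group holds 1 library. The share of cells selected was 20.1% at a sum of at least 4 UMIs, 8.56% at 8 and 10.5% after thinning to 8000 UMIs, where the rule was applied again. Against reference cells, 3787 genes were at least 2-fold higher and 1792 lower with no CPM minimum, and 376 lower without cycling and collagen-rich reference cells, where the log2 ratio of Aurkb was 0.0086. Aurkb is in the list by which cycling cells were left out. Against neuronal reference cells, higher and lower genes numbered 415 and 95 after thinning and 135 and 18 at a minimum of 20 CPM, and lower genes 78 at a sum of at least 8 and 54 without the highest doublet scores. Against rule-passing cells with supplements they numbered 832 and 870 after thinning and 303 and 280 at 20 CPM. Fewer genes are compared at 20 CPM. The other causes were not tested. Over 17 alternatives the list medians kept their sign, except axon injury, hypoxia and p53 target genes, which changed it in 5 each, and glycolysis genes in 2. The last 4 alternatives, on reference makeup, Ecel1-only cells, collagen UMIs and mixed sex markers, were chosen after seeing the data. Depth limits genes near 10 CPM in the 154 cells with supplements, and no depth replaces a second library.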

Other observations

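Stress genes lay close together in the Ecel1 Fxyd7 Snhg11 neurons and reference cells. None of 25 integrated stress and unfolded protein response genes was 2-fold higher and 1 was lower, with a median log2 ratio of -0.07 beside 0.19 for all genes. Of 15 p53 target genes 1 was at least 2-fold higher, Rrm2b, a ribonucleotide reductase subunit, at 39.0 and 17.6 CPM, and 0 were lower. Of 14 axon injury genes other than Ecel1, 4 were at least 2-fold higher and 1 lower, where 14.6% of all genes were that much higher. They included Hrk, a pro-apoptotic protein of neurons deprived of growth factors, at 126 and 21.2 CPM, and Stmn4, a stathmin, at 288 and 47.0 CPM. Of 18 Ras-ERK response genes 0 were higher and 5 lower, among them Spry1, a feedback inhibitor, at 26.8 and 77.8 CPM.

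Of 9 measured neurotrophic receptor genes 4 were at least 2-fold higher than in reference cells and 0 lower. Ret, the GDNF family receptor kinase, was at 124 CPM in these neurons and 25.2 CPM in reference cells, Gfra1, its GDNF-binding partner, at 184 and 113 CPM, and Cntfr, the CNTF-binding subunit, at 55.8 and 20.9 CPM. Lifr, a signalling partner of Cntfr, was at 12.2 and 21.6 CPM, and Fgfr1, an FGF receptor, at 74.8 and 133 CPM. Ntrk2, the BDNF receptor, was below the 10 CPM minimum in both, so no ratio is given. It had 19 of the 9515592 UMIs of the 579 neurons, and 0.504 CPM in reference cells. Ntrk3, the neurotrophin-3 receptor, was at 46.1 and 5.40 CPM. In rule-passing cells with supplements Ret was at 133 CPM, Gfra1 at 171 CPM, Lifr at 13.3 CPM and Ntrk3 at 96.2 CPM. Lhx4, a factor of motor neuron and V2a lineages, was at 12.9 and 1.98 CPM, and Shox2, another gene of the V2a list, at 38.4 and 25.7 CPM, while Sox14 and Vsx1 were at 0 UMIs. The V2a list summed to 56.9 and 33.7 CPM. Slc32a1, the transporter of inhibitory transmitters, was at 0 UMIs as well.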
